A study of Mus musculus with 23 samples.

Results

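The glutathione transferases are enzymes that join the tripeptide glutathione to reactive or foreign molecules. Transcripts of 9 of them were followed in mouse brown adipose tissue (BAT), out of 14651 genes in the table of normalized counts. Gsta3 was taken because its level differed by genotype at both temperatures, and Gsta4, Gstm1, Gstp1, Gstt1, Gstk1, Gsto1, Mgst1 and Mgst3 were taken by family name. The questions were whether these 8 relatives followed Gsta3 by genotype, and how all 9 changed with cold.

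RNA came from the BAT of 23 male C57BL/6 mice of 8-12 weeks, each sequenced once. Control mice were Mcu[fl/fl], that is, with loxP sites around exon 2 of both copies of Mcu, the gene of the pore of the mitochondrial calcium uniporter. BAT-Mcu-KO mice were Mcu[fl/fl];Ucp1-Cre, with the same loxP sites and a Cre recombinase driven by the Ucp1 promoter of brown adipocytes. At room temperature (RT) there were 6 mice of each genotype. After 6 h at 4°C there were 5 control and 6 BAT-Mcu-KO mice, the latter called knockouts from here on.

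These groups limit what can be compared. The transgene was present in the knockouts only, so the loss of Mcu and the presence of the transgene cannot be told apart. Other cell types of the tissue keep Mcu. The labels give the strain as C57BL/6, while the floxed line came from embryonic stem cells of mixed 129/BL6 background, crossed to C57BL/6J until the background was largely but not fully homogeneous. Mice at 4°C were housed alone, without bedding and, unless stated otherwise, without food. Mice were otherwise group-housed at RT on standard chow, and the RT exposure also lasted 6 h. Whether the RT mice were alone and had bedding and food in those 6 h is not stated in the sources used here, and as far as this differed it cannot be told apart from cold. In bulk tissue, fewer cells of a type and less RNA per cell cannot be told apart either.

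Depth was 7129271 to 21006347 reads per mouse. The normalized count of Mcu was 81.4 to 136 in control mice at RT and 70.8 to 132 in control mice at 4°C, against 15.2 to 42.4 and 24.0 to 39.9 in knockouts, with no overlap. The 8 brown adipocyte markers were all measured, and their summed normalized count was 190907 to 276647 at RT and 293609 to 356622 at 4°C. Ucp1 and Dio2, which the authors report as induced by cold, are among these markers. The rise of this sum is therefore no measure of the number of brown adipocytes. The summed level of 8 skeletal muscle markers ranged from 278 to 44507 across mice, with medians of 2211 in control and 18063 in knockouts at RT and of 10973 and 3464 at 4°C. The part of muscle in the results below was not tested. The sums of 5 endothelial markers were 2955 to 4226 at RT and 4359 to 7475 at 4°C, without overlap. In control mice the sums of 6 macrophage markers were 631 to 943 at RT and 743 to 1125 at 4°C, with overlap. In knockouts they were 457 to 863 at RT and 993 to 1289 at 4°C, without overlap. The part of endothelial cells and macrophages in the differences by cold was not tested either. Summed fibroblast, red blood cell and Schwann cell markers overlapped between RT and 4°C in both genotypes, and the 3 mesothelial markers were not in the table.

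The cytosolic glutathione transferases are grouped into classes named by Greek letters and act on electrophiles such as the aldehydes that form when lipids are oxidized. A separate class sits in mitochondria, and the microsomal enzymes of the MAPEG family are embedded in membranes and can also reduce lipid peroxides. Several of the genes carry an antioxidant response element, the DNA sequence through which the transcription factor NRF2 acts. BAT burns fatty acids in dense mitochondria when an animal is cold.

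The sequence upstream of Gsta3 is shown because Gsta3 is the member that stands apart, and a stretch upstream of Gstp1 because its match lies where a match to another motif searched lies too. They are from RefSeq on GRCm38.p6. The Gsta3 stretch is the 250 bases before the annotated start, at chr1:21240335-21240584 on the plus strand, and the Gstp1 stretch is 100 bases at chr19:4037978-4038077 on the minus strand. Capitals mark matches to TGANNNNGC, the core of the antioxidant response element, searched on both strands.
Gsta3: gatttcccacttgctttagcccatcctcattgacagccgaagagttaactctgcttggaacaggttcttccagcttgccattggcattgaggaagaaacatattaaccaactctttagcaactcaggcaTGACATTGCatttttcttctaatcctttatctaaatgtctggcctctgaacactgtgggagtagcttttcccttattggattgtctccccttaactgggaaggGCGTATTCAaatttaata
Gstp1: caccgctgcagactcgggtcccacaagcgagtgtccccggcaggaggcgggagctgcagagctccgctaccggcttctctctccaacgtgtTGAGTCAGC

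The matches upstream of Gsta3 began 121 bases before the start, on the plus strand, and 18 bases before it, as the reverse complement. The Gstp1 match printed began 74 bases before the start and overlapped the AP-1 motif TGANTCA. Of the 9 members, 8 had a promoter window of 300 bases in RefSeq (250 before the start and 50 after it), and Gsta4 had none. The core occurred in a window of 4 of these 8, namely Gsta3, Gstp1, Gstt1 and Mgst1, and in 45.0% of the 27025 genes with a window. TGANTCA occurred for 1 of the 8, Gstp1, and for 8.97% of all genes. The cAMP response element TGACGTCA occurred for 0 of the 8 and for 2.03% of all genes. A match is a run of letters and is no evidence of binding.

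Gsta3 encodes an alpha class enzyme, known in the mouse liver for conjugating the epoxide of aflatoxin. It lies at chr1:21240589-21265661 on the plus strand (GRCm38, GENCODE M21). At RT its normalized count (reads over the library's size factor) was 31.9, 35.9, 24.5, 25.02, 34.2 and 40.7 in the control mice. In the knockouts at RT it was 70.8, 86.9, 124, 274, 97.6 and 77.0. Every knockout was above every control mouse, which held for 0.102% of all genes, and replicate 4, at 274, was far above the other 5.

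At 4°C the normalized count of Gsta3 was 26.3, 25.8, 31.1, 24.2 and 37.7 in the control mice and 92.7, 94.7, 89.5, 95.1, 71.3 and 52.6 in the knockouts. The knockouts were again all above the controls, which held for 0.389% of all genes, and the lowest knockout was replicate 6. The log2 difference by genotype was 1.74 (SE 0.25), or 3.35-fold, at RT and 1.47 (SE 0.26), or 2.76-fold, at 4°C. Without replicate 4 of the knockouts at RT, the difference at RT was 1.48 on the log2 scale. These differences chose Gsta3, so they are given as a description without a test. The values rest on 13 to 306 reads per mouse.

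No change of Gsta3 with cold passed the test, which was a limma fit of 4 group means to log2(normalized count + 1), and calls were made at an adjusted p under 0.05 (Benjamini-Hochberg, all 14651 genes). The log2 difference of Gsta3 between 4°C and RT was -0.13 (95% interval -0.66 to 0.40, limma adjusted p = 0.70) in control mice and -0.41 (-0.92 to 0.09, adjusted p = 0.187) in knockouts. The intervals allow a fall of up to 0.66 and 0.92 on the log2 scale. Without replicate 4 of the knockouts at RT, the difference in knockouts was -0.14.

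**Figure D1:**
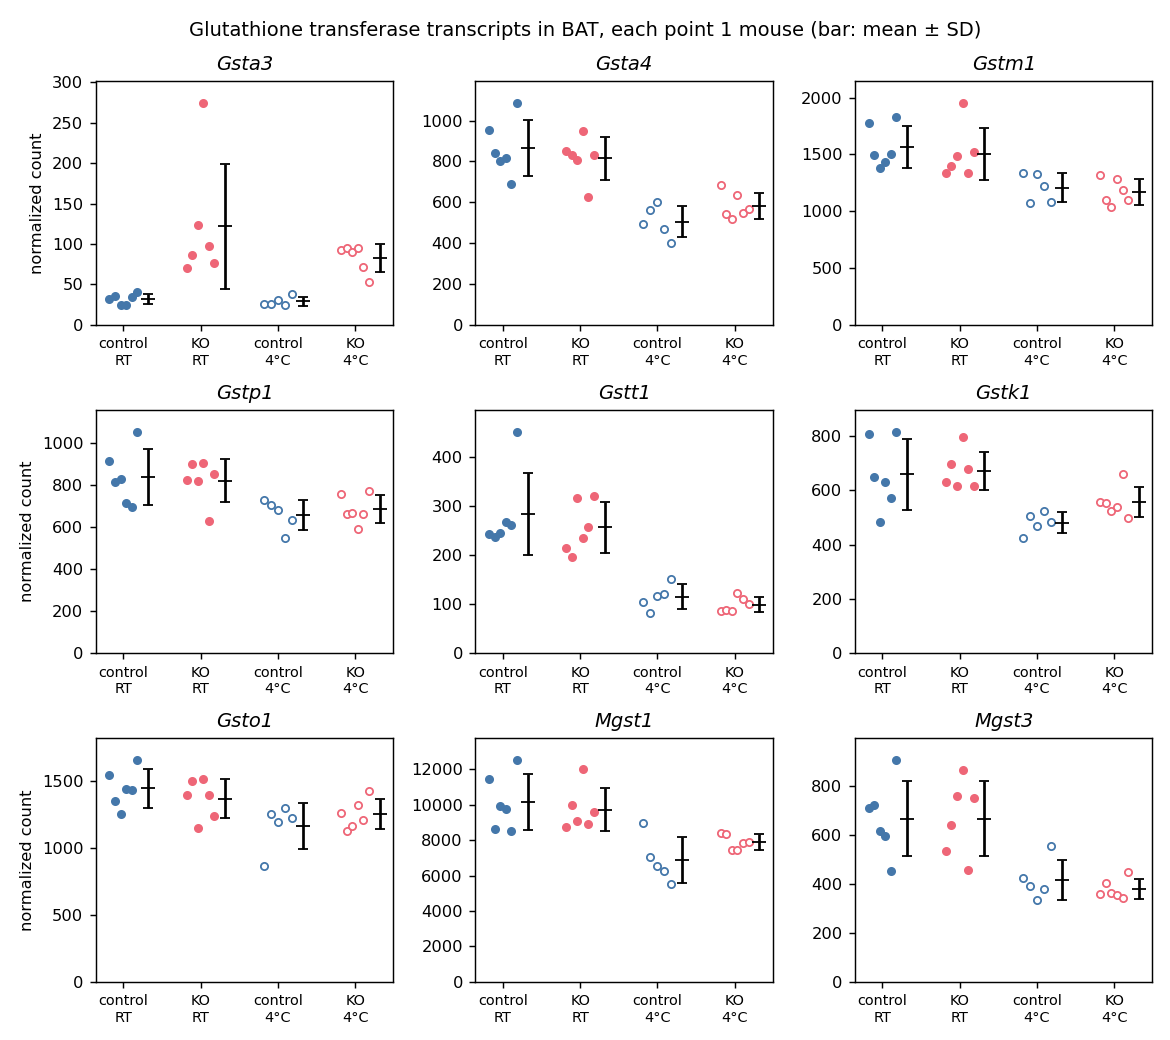
Normalized count of the 9 glutathione transferase transcripts in each mouse, by group (filled points RT, open points 4°C, blue control, red BAT-Mcu-KO; bars beside the points mean ± SD; vertical axes start at 0). Gsta3 separates by genotype at both temperatures, while the other 8 overlap by genotype and most lie lower at 4°C.

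None of the 8 relatives was called different by genotype at either temperature. At RT 0 of 8 were called, with 0.0478% of all genes called in either direction (7 genes). Their log2 differences between BAT-Mcu-KO and control lay between -0.13 (Gstt1) and 0.05 (Gstk1), the smallest limma adjusted p was 0.996, and their 95% intervals lay within -0.47 to 0.31. At 4°C 0 of 8 were called, with 0.0751% of all genes called (11 genes). The log2 differences there lay between -0.21 (Gstt1) and 0.22 (Mgst1), the smallest limma adjusted p was 0.735 and the intervals lay within -0.56 to 0.45. At an unadjusted p under 0.05, the count was also 0 of 8 at either temperature, against 754 genes at RT and 1023 at 4°C in the whole table. In edgeR's and DESeq2's count tests none of the 8 was called by genotype either.

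With cold, 8 of 8 relatives were called lower in control mice and 6 of 8 in knockouts, and 0 were called higher. In knockouts all 8 differences lay below 0, those of Gstp1 and Gsto1 not being called. In counts of genes from here on, fell and rose mean called lower and called higher. Over all genes, 23.7% were called lower by cold in control mice and 22.3% higher, and in knockouts the shares were 21.9% and 21.4%. The median log2 difference of all genes was -0.02 in both genotypes. When each library was scaled to its 75th percentile instead, the median of all genes in control mice was -0.13, and 38.2% of the called genes were higher instead of 48.5%. Under that scaling 8 members were still called lower in control mice and 7 in knockouts.

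Gsta4, the other alpha class member, conjugates hydroxynonenal, an aldehyde from oxidized lipids. It lies at chr9:78182774-78209349. Its normalized count in control mice was 691 to 1086 (median 831) at RT and 494, 563, 600, 470 and 403 at 4°C, so all 5 cold mice lay below all 6 at RT. In knockouts it was 626 to 949 (median 832) at RT and 518 to 684 (median 556) at 4°C, and 4 of 6 cold mice lay below all RT mice. The log2 difference by cold was -0.77 (SE 0.12, limma adjusted p = 8.0e-06) in control mice and -0.49 (SE 0.11, adjusted p = 0.0011) in knockouts. By genotype, Gsta4 differed from control by -0.08 at RT and 0.21 at 4°C, neither called. The fall with cold was called for Gsta4 and not for Gsta3, and the difference between these alpha class genes was not tested.

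Gstm1, of the mu class, was the second most abundant member, at chr3:108012255-108017973. In control mice the normalized count was 1376 to 1825 (median 1499) at RT and 1333, 1074, 1325, 1221 and 1083 at 4°C, without overlap. In knockouts it was 1335 to 1950 (median 1441) at RT and 1034 to 1316 (median 1141) at 4°C, again without overlap. The fall was nearly equal in both genotypes, by 0.37 on the log2 scale in control mice (SE 0.10, limma adjusted p = 0.0039) and by 0.36 in knockouts (SE 0.10, adjusted p = 0.0043). A share of 32.6% of the distinct stretches of 25 bases in Gstm1 transcripts, the length of a read, also occurs in other genes, mostly Gstm2-ps1 and Gstm3, so some reads of Gstm1 could not be placed uniquely.

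Gstp1, of the pi class, lies at chr19:4035407-4037985 and shares 40.2% of its 25-base stretches with other genes, mostly Gstp2. Its value is therefore uncertain. The normalized count in control mice was 696 to 1055 (median 824) at RT and 728, 707, 681, 547 and 633 at 4°C, and the groups overlapped. In knockouts it was 629 to 906 (median 837) at RT and 592 to 773 (median 667) at 4°C. The log2 difference by cold was -0.34 (SE 0.11, limma adjusted p = 0.0141) in control mice and -0.25 (SE 0.11, adjusted p = 0.0545) in knockouts. The latter missed the threshold and passed it in 7 of the alternative analyses. It also passed without any 1 of 6 mice (limma adjusted p = 0.0109 to 0.0475). Of the knockouts these were replicate 5 at RT and replicates 1 and 6 at 4°C. Of the control mice they were replicates 5 and 6 at RT and replicate 4 at 4°C. Without any of these control mice the difference in knockouts stayed at -0.25, as only the shared spread and the adjustment changed. Without replicate 4 of the control mice at 4°C, the difference in control mice was -0.27 and no longer called (limma adjusted p = 0.0559).

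Gstt1, of the theta class, which acts on small halogenated compounds, showed the largest fall of the 9. It lies at chr10:75783813-75798584. Its normalized count in control mice was 236 to 451 (median 253) at RT and 105, 81.9, 117, 121 and 151 at 4°C. In knockouts it was 197 to 320 (median 246) at RT and 86.1 to 122 (median 93.5) at 4°C. Every cold mouse lay below every RT mouse in both genotypes. The log2 difference was -1.28 (SE 0.17, limma adjusted p = 1.2e-06) in control mice and -1.36 (SE 0.16, adjusted p = 2.6e-07) in knockouts, which is 0.412-fold and 0.390-fold.

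Gstk1, the kappa class enzyme that works in mitochondria and peroxisomes, lies at chr6:42245935-42250447. In control mice the normalized count was 485 to 816 (median 639) at RT and 425, 505, 469, 522 and 484 at 4°C, with overlap. In knockouts it was 616 to 798 (median 655) at RT and 500 to 660 (median 547) at 4°C, where replicate 5 alone reached the RT range. The log2 difference by cold was -0.43 (SE 0.11, limma adjusted p = 0.0027) in control mice and -0.27 (SE 0.11, adjusted p = 0.0423) in knockouts. The call in knockouts was lost without any 1 of 8 mice, namely replicates 2, 4 and 5 at RT and 1, 2, 3, 4 and 6 at 4°C, with differences of -0.22 to -0.27 (limma adjusted p = 0.0588 to 0.113). At 4°C, 5 of 6 knockouts lay above all control mice, and the log2 difference of 0.21 (95% interval -0.03 to 0.44, limma adjusted p = 0.745) was not called.

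Gsto1, of the omega class, reduces dehydroascorbate and acts as a thiol transferase. It lies at chr19:47854970-47864790, where Cfap43 overlaps it on the opposite strand but shares 0 exon bases. Its normalized count in control mice was 1252 to 1657 (median 1434) at RT and 866, 1250, 1191, 1296 and 1224 at 4°C. In knockouts it was 1152 to 1518 (median 1394) at RT and 1130 to 1428 (median 1238) at 4°C, with most mice in a common range. The log2 difference by cold was -0.32 (SE 0.10, limma adjusted p = 0.0117) in control mice and -0.12 (SE 0.10, adjusted p = 0.325) in knockouts. With quantile normalization the difference in knockouts was -0.28 and was called (limma adjusted p = 0.0260). Without replicate 1 of the control mice at 4°C, the lowest of all, the difference in control mice was -0.21 and the call was lost (limma adjusted p = 0.0576).

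Mgst1, a membrane-bound enzyme of the endoplasmic reticulum and outer mitochondrial membrane, was the most abundant member by far. It lies at chr6:138140316-138156755, and none of its 25-base stretches (0%) occurs in another gene. In control mice the normalized count was 8520 to 12525 (median 9850) at RT and 8995, 7036, 6559, 6272 and 5542 at 4°C, where replicate 1 alone reached the RT range. In knockouts it was 8767 to 12006 (median 9335) at RT and 7431 to 8407 (median 7872) at 4°C, without overlap. The log2 difference by cold was -0.56 (SE 0.11, limma adjusted p = 0.00018) in control mice and -0.29 (SE 0.11, adjusted p = 0.0280) in knockouts. The call in knockouts was lost without replicate 4 at RT (-0.23, limma adjusted p = 0.0870) and without replicate 3 or 4 at 4°C (-0.28 in each case, adjusted p = 0.0565 and 0.0546).

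Mgst3, the other microsomal member, which also reduces lipid peroxides, lies at chr1:167371966-167393841. Its normalized count in control mice was 455 to 907 (median 663) at RT and 423, 392, 334, 381 and 554 at 4°C, where replicate 5 alone reached the RT range. In knockouts it was 458 to 865 (median 696) at RT and 342 to 449 (median 361) at 4°C, without overlap. The log2 difference was -0.67 (SE 0.16, limma adjusted p = 0.0013) in control mice and -0.79 (SE 0.15, adjusted p = 0.00016) in knockouts. After Gstt1 this was the largest fall in knockouts among the 9.

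Among the 8 relatives, cold and RT groups did not overlap for 3 in control mice (Gsta4, Gstm1 and Gstt1) and for 4 in knockouts (Gstm1, Gstt1, Mgst1 and Mgst3). Of all genes, 12.3% were lower without overlap in control mice and 11.9% in knockouts. Whether cold acted differently in the genotypes was tested by the interaction, which was called for 0 of 9 members and 0% of all genes. The log2 interaction of the relatives lay between -0.12 (Mgst3) and 0.29 (Gsta4), with a smallest unadjusted limma p of 0.0913. At an adjusted p under 0.05 edgeR also called 0 genes for the interaction and DESeq2 called 28, none of them a member. At an unadjusted p under 0.05, limma gave 878 genes. For Gsta3 the interaction was -0.28 (95% interval -1.01 to 0.46), and without replicate 4 of the knockouts at RT it was -0.010. A call in control mice and not in knockouts, as for Gstp1 and Gsto1, is therefore no shown difference between the genotypes.

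**Figure D2:**
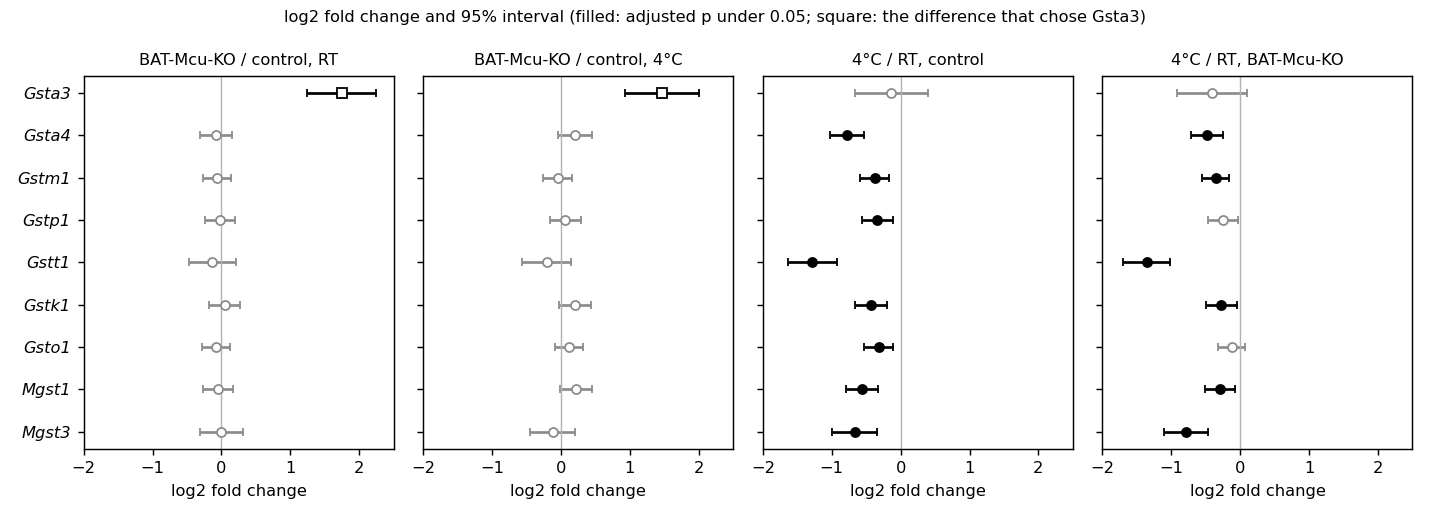
Log2 fold change with its 95% interval for the 9 members in 4 comparisons (points, limma; filled, adjusted p under 0.05; grey, not called; square, the difference by genotype that chose Gsta3). Gsta3 lies at 1.74 and 1.47 by genotype with the other 8 near 0, and by cold the 8 relatives lie below 0 in both genotypes.

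Levels of different genes were compared per kilobase of exon, in control mice at RT. Mgst1 had 5034 ± 785 normalized counts per kilobase (SD, n = 6), followed by Gstm1 with 1064 ± 127. Gsto1 (714 ± 70.3), Gsta4 (684 ± 108), Mgst3 (609 ± 138), Gstp1 (541 ± 85.7) and Gstk1 (449 ± 89.1) came next, and each of these neighbours overlapped in range with the one after it. Gstt1 had 186 ± 54.2 and Gsta3, the lowest, 7.38 ± 1.46. The ranges of Mgst1 and Gstm1, of Gstm1 and Gsto1, of Gstk1 and Gstt1, and of Gstt1 and Gsta3 did not overlap. With 16 further measured genes of the family added, Gsta3 was 22nd of 25, its range overlapping those of Alox5ap above it and Gstcd below it. The length used was that of all annotated exons of a gene together, 4344 bases for Gsta3 and 1266 for Gsta4. The order therefore depends on the annotation. Gsta3 made up 0.158 to 0.243% of the summed normalized counts of the 9 members in control mice at RT and 0.196 to 0.373% at 4°C. In knockouts the share was 0.484 to 1.41% at RT and 0.409 to 0.768% at 4°C. Mgst1 made up 54.8 to 67.2% across all mice.

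**Figure D3:**
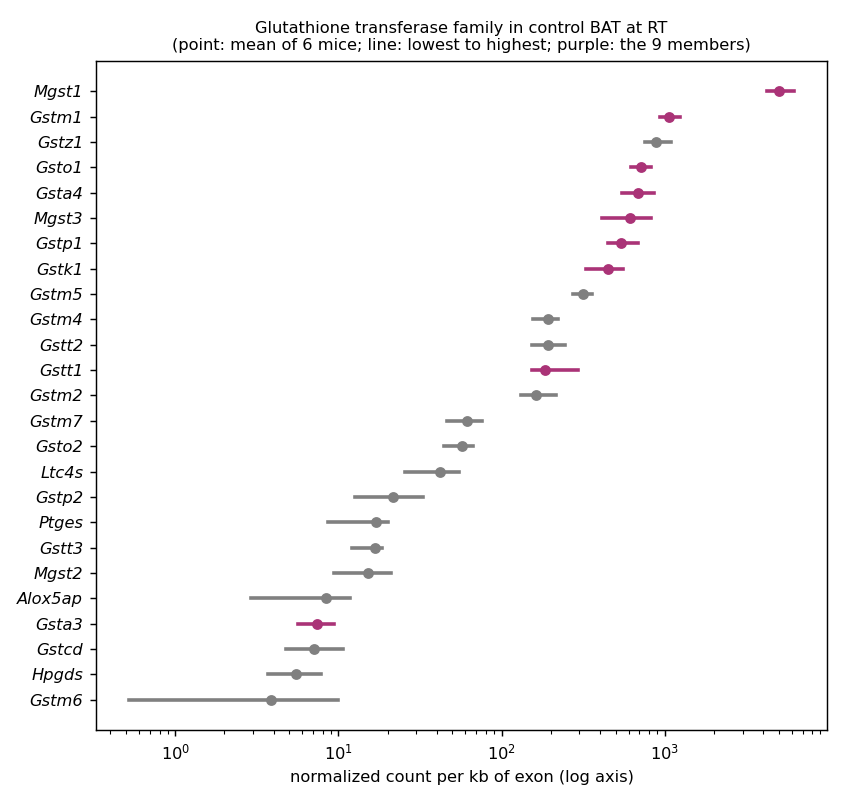
Normalized count per kilobase of exon of the 25 measured genes of the family in control BAT at RT (log axis; point, mean of 6 mice; line, lowest to highest; purple, the 9 members). Gsta3 at 7.38 lies among the least abundant genes and Mgst1 at 5034 is the most abundant.

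The wider family list held 30 genes, of which 25 were measured (Gsta1, Gsta2, Gstm3, Gstp3 and Gstt4 were not in the table). With cold, 17 of 25 were called lower in control mice and 17 of 25 in knockouts, 15 of them in both. In either genotype 0 were called higher. The median log2 difference of the 25 was -0.56 in control and -0.47 in knockouts, against -0.02 for all genes in each. Among the 16 outside the members, 9 were called lower in control mice and 11 in knockouts. By genotype none of these 16 was called, with 0.0478% of all genes called at RT and 0.0751% at 4°C.

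The theta class genes fell together. Gstt3 differed by -1.33 in control and -1.27 in knockouts on the log2 scale, and Gstt2 by -1.35 and -0.69. Gstt3 shares 14.3% of its 25-base stretches with other genes, mostly Gm20441. Such shares were 16.2% for Gstm2, 11.9% for Gstm6 and 11.7% for Gstm5. In the mu class, Gstm4 differed by -1.07 and -1.13, Gstm5 by -0.50 and -0.46, and Gstm2 by -0.49 and -0.43, all called lower in both genotypes. Gstm7 (-0.21 and -0.15) and Gstm6 (0.94 and -0.16) were not called. Gstm6 was low in all groups, with mean normalized counts of 7.70 at RT and 12.3 at 4°C in control mice. In knockouts its means were 10.5 and 8.63.

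Gstz1, the isomerase of tyrosine breakdown, differed by -0.72 in control and -0.59 in knockouts, and Gsto2 by -0.70 and -0.39, both called. Among the membrane-bound genes Mgst2 differed by -1.40 and -1.59, and Ptges, which makes prostaglandin E, by -1.55 and -1.04, all called. Hpgds, which makes prostaglandin D in the cytosol, differed by -0.70 (not called) and -1.18 (called), and Gstp2 by -0.56 (not called) and -0.73 (called). The value of Gstp2 is uncertain, since 63.5% of its 25-base stretches occur in other genes, mostly Gstp1. Ltc4s, which makes leukotriene C, differed by -0.47 and -0.47 and Gstcd by -0.38 and -0.50, none called. Alox5ap, which passes arachidonic acid to the leukotriene pathway, was at 0.67 and 0.80, and neither value was called.

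**Figure D4:**
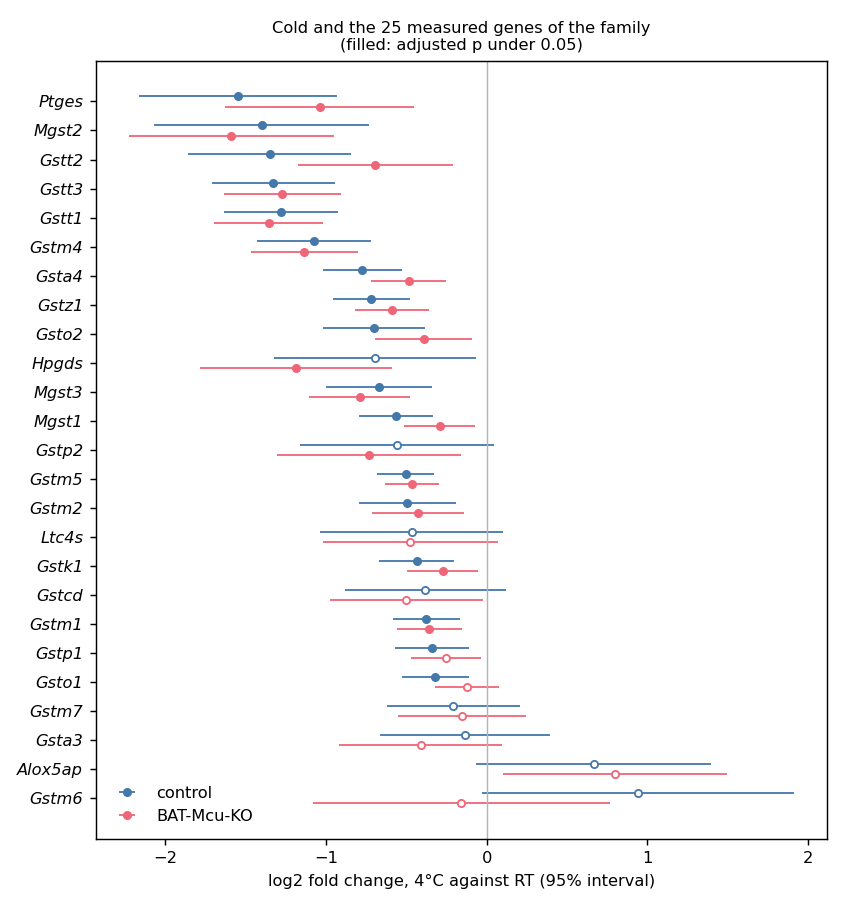
Log2 fold change of 4°C against RT with its 95% interval for the 25 measured genes of the family, in control (blue) and knockouts (red; filled, adjusted p under 0.05). The 17 called genes in each genotype lie below 0, and Gsta3 and 7 other genes in each genotype are not called.

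Other genes that make and use glutathione were counted in 4 lists. None of these held a gene called by genotype, with 0.0478% of all genes called at RT and 0.0751% at 4°C. At such shares, a count of 0 is no result about these lists. Their counts by cold stand beside 22.3% of all genes higher and 23.7% lower in control mice, and 21.4% higher and 21.9% lower in knockouts. Of 14 genes of glutathione synthesis and turnover, 12 were measured. In control mice 6 rose and 2 fell, with a median log2 difference of 0.64, and in knockouts 5 rose and 1 fell, with a median of 0.25. Slc3a2, the chain shared by the cystine and other amino acid exchangers, rose by 3.13 in control and 2.93 in knockouts on the log2 scale. Cth and Cbs, which make cysteine from homocysteine, rose by 2.91 and 2.44 in control and by 1.96 and 2.61 in knockouts. By genotype, Cbs was higher in knockouts by 1.26 at RT and 1.43 at 4°C, neither called (limma adjusted p = 0.940 and 0.562). At 4°C all 6 knockouts lay above all control mice for Cbs, which held for 0.389% of all genes. Cbs had 1 to 16 reads per mouse in control mice at RT. Cth differed by genotype by 0.24 at RT and -0.71 at 4°C, neither called (limma adjusted p = 0.993 and 0.553). Chac2, which degrades glutathione, fell by 0.69 and 0.49. Chac1, which degrades it too, did not share this fall. Its normalized count in control mice was 18.2 to 85.9 at RT and 101 to 253 at 4°C. In knockouts it was 21.4 to 141 at RT and 24.8 to 144 at 4°C.

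Of the glutathione peroxidases, reductase and glutaredoxins, 11 of 14 were measured. In control mice 1 rose (9.09%) and 4 fell (36.4%), and in knockouts 1 rose (9.09%) and 2 fell (18.2%), the last share being below that of all genes. Prdx6, a peroxiredoxin that uses glutathione, was the gene that rose, by 0.93 and 0.88 on the log2 scale. Gpx4, which reduces peroxides of membrane lipids, fell by 0.49 and 0.34, and Gpx3, the secreted peroxidase, by 0.52 and 0.55.

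All 13 genes of glutathione-dependent detoxification and conjugate export were measured. In control mice 1 rose and 8 fell, with a median log2 difference of -0.38, and in knockouts 1 rose and 7 fell, with a median of -0.32. The exporter Abcc1, which carries glutathione conjugates out of cells, fell by 0.74 in control and 1.04 in knockouts, and Abcc4 by 0.68 and 0.78. Adh5, which oxidizes the adduct of formaldehyde and glutathione, fell by 0.46 and 0.32. Dpep1, a dipeptidase at the cell surface, was the gene that rose, by 0.55 and 0.90.

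All 12 genes of the list of NRF2 and its targets, which shares Gclc, Gclm, Slc7a11 and Gsr with the lists above, were measured. In control mice 6 rose and 1 fell, with a median log2 difference of 0.60, and in knockouts 7 rose and 1 fell, with a median of 0.54. Hmox1, which breaks down heme, rose by 4.21 in control and 3.11 in knockouts. Txnrd1, the cytosolic thioredoxin reductase, rose by 1.17 and 0.84, and Srxn1, which repairs oxidized peroxiredoxins, by 0.84 and 0.80. In the same mice 0 of the 25 family genes were called higher.

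**Figure D5:**
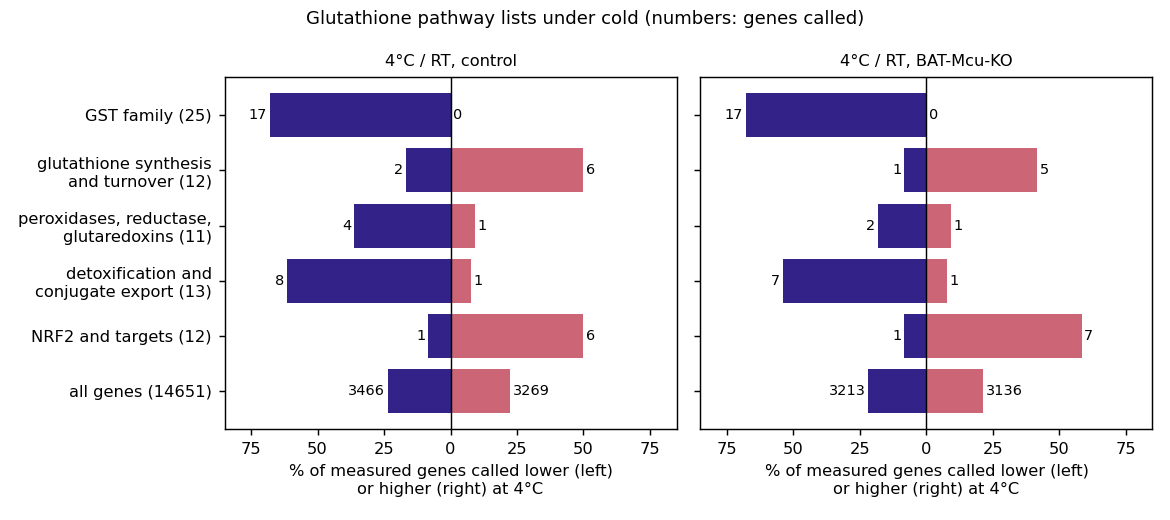
Share of the measured genes of each list called lower (left of 0) or higher (right of 0) at 4°C against RT, in control and knockouts, with the number of genes called beside each bar and the number measured in brackets. The family had 17 genes called lower and 0 higher in either genotype, while the synthesis and NRF2 lists had more called higher than lower.

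The genes with patterns most like that of Gsta3 were sought outside the family, whose genes were left out of the candidates. Likeness was the root mean square difference of log2(normalized count + 1), scaled to mean 0 and SD 1 over the 23 mice. The candidates were the 11493 genes outside the family list with a mean of 20 or more. The closest were Cyp2e1 (0.682), Adhfe1 (0.860), Dusp22 (0.865), Ap4b1 (0.872) and Dctn4 (0.873), where the median of the candidates was 1.38. Among the relatives the closest was Gstk1, at 1.065, which would be place 201, and the farthest Gstt1, at 1.36. Since the pattern of Gsta3 chose these genes, their values are a description.

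Cyp2e1, the ethanol-oxidizing cytochrome, had normalized counts of 1963 to 2072 in control mice at RT and of 2260 to 8319 in knockouts at RT, without overlap. The highest was replicate 4, the same mouse in which Gsta3 was highest. At 4°C Cyp2e1 was 1926, 1537, 3050, 1609 and 1159 in control mice and 1879 to 3698 in knockouts, with overlap. Adhfe1, a mitochondrial enzyme of hydroxyacid metabolism, had means of 2107 ± 512 and 2565 ± 474 (SD) in control and knockouts at RT, and of 1620 ± 321 and 2206 ± 181 at 4°C. These 5 genes were less raised in knockouts than Gsta3, with log2 differences at RT from 0.16 (Dusp22) to 0.70 (Cyp2e1).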

How the data were processed

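For BAT of 23 mice the authors deposited a signal in the form of normalized counts per gene. Smart-seq2 libraries were read from both ends (25 bases each), and the authors aligned reads to mm10 with STAR (version 2.4.0j, per the labels) and GENCODE M7, counted unique reads in exons with HTSeq irrespective of strand, kept genes that reached 8 reads in 6 or more samples and divided by DESeq2 size factors. Their table of comparisons (fold changes and p-values) was not used. Values were whole multiples of 1 read in every library (tolerance 0.02 reads), which gave back reads and depth. Read numbers cover counting error only, since PCR copies are not independent molecules.

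The values were tested with limma (version 3.58.1) in R (version 4.3.3), after log2(normalized count + 1), with a variance trend, 4 group means and all 23 mice in 1 model, and Benjamini-Hochberg adjustment over 14651 genes. Fold changes are on that scale, which understates those of low genes. Count tests on the recovered reads (edgeR version 4.0.16, quasi-likelihood, and DESeq2 version 1.42.0), other scalings, filters and pseudocounts, and leaving out each mouse were alternatives. Simulated cold data of 14651 genes were used to test the scripts. Groups and replicate numbers came from the sample labels. Same-numbered mice are different animals, and the 55 pairs of replicates within groups differed by more than sampling noise.

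The members, gene lists and tests were chosen with earlier results of these data known. Named were the 9 members, the measured family genes, up to 3 called genes of smallest adjusted p of each other list in each cold comparison, any gene called by genotype there, and the 5 genes most like Gsta3. Chac1 was added beside Chac2, as both degrade glutathione. Positions are from GENCODE M21 (GRCm38) and promoter windows from RefSeq (GRCm38.p6). There were 19 symbols that read as dates, and these genes are not named.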

Additional observations from a re-analysis of the deposited data

Results flagged for a closer look

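In 36 sets of values (9 members in 4 groups), the gap between the highest or lowest mouse and its neighbour was compared with the range of the group (Dixon's criterion at 95%), and 6 sets held a mouse far from the others. Chance alone gives about 1 in 20. Among the knockouts at RT, replicate 4 was highest for Gsta3, with a normalized count of 274 against 124 for the next mouse, and for Gstm1, with 1950 against 1518. Replicate 5 of that group was lowest for Gstp1, with 629 against 821. Among the control mice at RT, replicate 6 was highest for Gstt1, with 451 against 268. Among the knockouts at 4°C, replicate 5 was highest for Gstk1, with 660 against 556. Among the control mice at 4°C, replicate 1 was lowest for Gsto1, with 866 against 1191.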

How the results depend on the processing

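By genotype, the number of all genes called at RT was 7, and it was 3 when the fit held the compared groups alone, 20 in DESeq2 and 5 to 8 when each mouse was left out. At 4°C it was 11, and it was 7 without the variance trend, 2 with those groups alone, 6 in edgeR, 23 in DESeq2 and 3 to 16 when each mouse was left out (3 without control replicate 2, 7 without control replicate 5 and 6 without knockout replicate 4). Same-numbered mice did not deviate together (correlations of -0.14 to 0.07 at RT and 0.04 to 0.22 at 4°C, with 3 of 23 mice closest to their own number), and a fit with a replicate block called 7 genes at 4°C and 7 at RT. The number of members past the threshold at 4°C was 1, 0 in edgeR and 0 to 1 when each mouse was left out (0 without control replicate 2 or knockout replicate 4). That member was Gsta3, which was chosen for this difference, so the count is a description and supports nothing. For the interaction, DESeq2 called 28 genes, edgeR and the other alternatives 0, and leaving out each mouse gave 0 to 1 (1 without control replicate 1 at 4°C). Members called lower by cold in control mice were 8 in every alternative and 7 to 8 when each mouse was left out (Gsto1 was lost without replicate 1, and Gstp1 without replicate 4, of the control mice at 4°C). In knockouts they were 6, with 5 to 8 in the alternatives and 4 to 7 when each mouse was left out, the lowest without replicate 4 at RT or replicate 3 or 4 at 4°C, when both Gstk1 and Mgst1 were lost. With the replicate block 7 were called there, Gstp1 being added. Leaving out a mouse turned the sign of some small differences that were not called: by genotype at RT the log2 values ranged from -0.075 to 0.050 for Gstp1, -0.20 to 0.012 for Gstt1, -0.038 to 0.11 for Gstk1, -0.12 to 0.010 for Mgst1 and -0.11 to 0.10 for Mgst3, at 4°C from -0.0048 to 0.10 for Gstp1, and for the interaction from -0.028 to 0.10 for Gstm1 and -0.22 to 0.025 for Gstt1. Where an alternative tests fewer genes or samples the counts change by its construction, and otherwise the cause was not tested. Of 441 other values of single members under the alternatives, 432 were counted as unchanged. For most values this meant the same direction and call. For Gsta3 by genotype it meant the same direction and a shift smaller than the SD of the knockouts. The call of Gsta3, lost in edgeR at 4°C, was not judged in this count. Gsta3 rests on 13 to 306 reads per mouse, which limits its precision most among the members.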
